A study of Rattus norvegicus with 47 samples.

Results

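Glucose reaches blood cells through carriers in the cell membrane, is trapped by hexokinases and is then broken down to pyruvate by glycolysis, from which lactate is made and exported or which enters the mitochondria through pyruvate dehydrogenase. Side branches store glucose as glycogen and send it into the pentose phosphate pathway, which supplies NADPH. Neutrophils draw most of their energy from glycolysis, hold glycogen stores, and use NADPH for the oxidative burst. The genes described here cover glucose uptake, glycolysis, lactate export, glycogen metabolism, pyruvate dehydrogenase control and the pentose phosphate pathway. They were picked, with earlier results of these data known, as a list of 39 gene symbols. Of these, 36 were found among the symbols of the 27596 probe sets of the array table, and Hk1, Pgam1 and Gaa were not found by symbol. Where a symbol had several probe sets, which was so for 3 genes, the probe set with the highest mean signal was taken.

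The RNA came from the blood of 8 male spontaneously hypertensive rats (SHR) aged 16 weeks, a strain with inherited high blood pressure. Stroke was induced by passing a coated thread along the internal carotid artery to occlude the middle cerebral artery (MCA). Each rat was bled at 0 h, before anesthesia began, and at 1, 2, 3, 6 and 24 h after the occlusion, and RNA of the blood cell pellet was hybridized to 1 Affymetrix rat gene array per sample, 47 arrays in all. The number of arrays was 7 at 6 h and 8 at all others. No sham-operated rats were analysed here, so every change is a change from 0 h in rats that had anesthesia, surgery, occlusion and repeated bleeding together at changing times of day, and these cannot be told apart. The occlusion was transient, and reperfusion under renewed anesthesia fell between the 1 and 2 h samples. The samples from 0 to 6 h came from the tail vein and the 24 h samples from the heart after an anesthetic overdose, so at 24 h the time and the site of sampling changed together. The values are the authors' means and SDs of log2 signal per time point. The values of single arrays were not used here, so the spread is given as the authors' SD and no statement is made on overlap between single samples.

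Time points were compared by a moderated linear model on the means, SDs and array numbers, with the false discovery rate (FDR) adjusted over all 27596 probe sets and a call at an FDR below 0.05. The F-test asked whether a probe set differed anywhere among the 6 time points. It called 31 of the 36 genes, against 55.5% of all probe sets. As the list was picked with earlier results known, such comparisons cannot test whether glucose genes changed more than others. The largest change from 0 h was a rise in 26 of the 31 and a fall in 5, which were Gpi, Pfkp, Eno3, Pygb and Pdk1, where 31.3% of all probe sets were called with a rise and 24.1% with a fall as the largest change. The 5 genes that missed the call were Pfkm, Pfkfb2, Ldhb, Pgm1 and Pdk2. The median size of the largest change was 0.60 on the log2 scale over the 36 genes and 0.24 over all probe sets, and it was above 1, a doubling or halving, in 11 of the 36 genes (30.6%) and in 3.54% of all probe sets. At an unadjusted p below 5e-07 in the F-test computed here, 18 of the 36 genes and 13.5% of all probe sets were called. The cut-off was taken from the study, which applied it to its own F-test. The p-value printed there for Pygl is larger than the one computed here. The cut-off is therefore not equally strict in both tests, and the counts given here are not those of the study.

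Short sequences shared by promoters are shown first for 4 of the genes that the results turn on. ACGTG is the core of the hypoxia response element, and windows of 300 bases around the start of each gene from RefSeq on GRCr8 were searched for it on both strands. A window was matched by symbol for 34 of the 36 genes, and Slc2a3 and Pgk1 were not matched. ACGTG stood in 16 of the 34 windows (47.1%) and in 19.8% of the windows of all 21851 protein-coding genes. The GC content of the 34 windows ran from 41.3% (Mgam) to 72.0% (Pdk1). The windows of all genes were not matched for GC content, and the difference in share was not tested. ACGTG was found in 5 of the 12 windows of genes with their largest rise at 6 h. It was in 4 of the 11 with their largest rise at 2 or 3 h, and in 6 of the 9 whose largest change, called or not, was a fall. A match is a run of letters and not a known site. The rising groups hold called genes only, while the 9 include Pfkm, Ldhb, Pgm1 and Pdk2, which missed the F-test call. Of these, Pfkm, Pgm1 and Pdk2 have a match. The shares of the rising and falling groups are therefore not comparable, and no difference between them was tested. CACGTG, which contains ACGTG and is the palindromic E-box, was in 4 of the 34 windows (11.8%) and 7.0% of all. The full palindrome of the glucocorticoid response element was in none of the 34 and in none of the 21851. No match was found in the windows of Hk2, Eno3, Tpi1, Slc16a3 or Pfkfb4, which are also among the genes with the changes described here. The windows below were picked among those with a match and show 3 genes that rose (Slc2a1, Pfkfb3 and Pdk3) and 1 that fell (Pdk1). The capitals mark ACGTG on either strand, including where it lies in CACGTG.
Slc2a1 (chr5:138002272-138002571, plus strand): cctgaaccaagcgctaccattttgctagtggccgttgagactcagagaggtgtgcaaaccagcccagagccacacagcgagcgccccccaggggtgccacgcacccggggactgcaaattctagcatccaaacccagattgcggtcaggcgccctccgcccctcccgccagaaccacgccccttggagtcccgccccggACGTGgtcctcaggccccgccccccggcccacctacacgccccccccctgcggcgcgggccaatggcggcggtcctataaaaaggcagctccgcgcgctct
Pfkfb3 (chr17:71944683-71944982, plus strand): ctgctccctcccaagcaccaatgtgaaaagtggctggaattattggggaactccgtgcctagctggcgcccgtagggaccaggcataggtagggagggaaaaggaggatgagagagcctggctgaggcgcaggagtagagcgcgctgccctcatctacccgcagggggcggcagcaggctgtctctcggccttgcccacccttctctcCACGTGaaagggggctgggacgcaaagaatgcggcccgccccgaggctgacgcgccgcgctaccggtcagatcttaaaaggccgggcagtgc
Pdk3 (chrX:62547322-62547621, minus strand): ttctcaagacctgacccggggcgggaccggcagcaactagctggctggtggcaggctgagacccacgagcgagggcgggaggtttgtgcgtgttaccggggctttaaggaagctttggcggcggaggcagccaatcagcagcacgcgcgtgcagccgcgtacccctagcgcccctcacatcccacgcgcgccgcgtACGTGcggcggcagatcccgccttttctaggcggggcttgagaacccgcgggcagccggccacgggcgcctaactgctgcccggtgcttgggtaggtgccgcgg
Pdk1 (chr3:77113264-77113563, plus strand): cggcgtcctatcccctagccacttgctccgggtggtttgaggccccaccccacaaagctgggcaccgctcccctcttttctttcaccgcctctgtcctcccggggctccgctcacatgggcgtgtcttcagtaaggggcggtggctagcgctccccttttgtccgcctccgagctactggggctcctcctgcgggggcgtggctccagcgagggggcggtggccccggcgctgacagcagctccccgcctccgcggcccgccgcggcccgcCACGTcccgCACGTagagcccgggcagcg

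Against 0 h, 12 of the 36 genes were higher and 5 lower at 1 h, where 21.7% of all probe sets were higher and 15.4% lower. At 2 h, 24 were higher and 5 lower, against 21.7% and 18.6% of all probe sets. At 3 h, 21 were higher and 3 lower, against 27.3% and 19.2%. At 6 h, 25 were higher and 4 lower, against 22.5% and 19.3%. At 24 h, 14 were higher and 2 lower, against 17.4% and 13.9%. In order of time, the median log2 changes of the 36 genes were 0.15, 0.33, 0.30, 0.43 and 0.16, and that of all probe sets lay between 0.04 and 0.07. Over the same hours all 10 neutrophil markers rose, by a median of 1.77 at 6 h, and their part in these counts was not tested. When each time point was centred on its median over all probe sets, the calls over all probe sets shifted to 12.6% higher and 18.8% lower (1 h), 16.1% and 20.3% (2 h), 19.1% and 21.4% (3 h), 16.9% and 21% (6 h), and 9.96% and 16.8% (24 h), so that falls outnumbered rises at every time point. With that centring the counts among the 36 genes were 11 higher and 6 lower (1 h), 23 and 6 (2 h), 20 and 4 (3 h), 24 and 4 (6 h), and 11 and 3 (24 h).

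**Figure D1:**
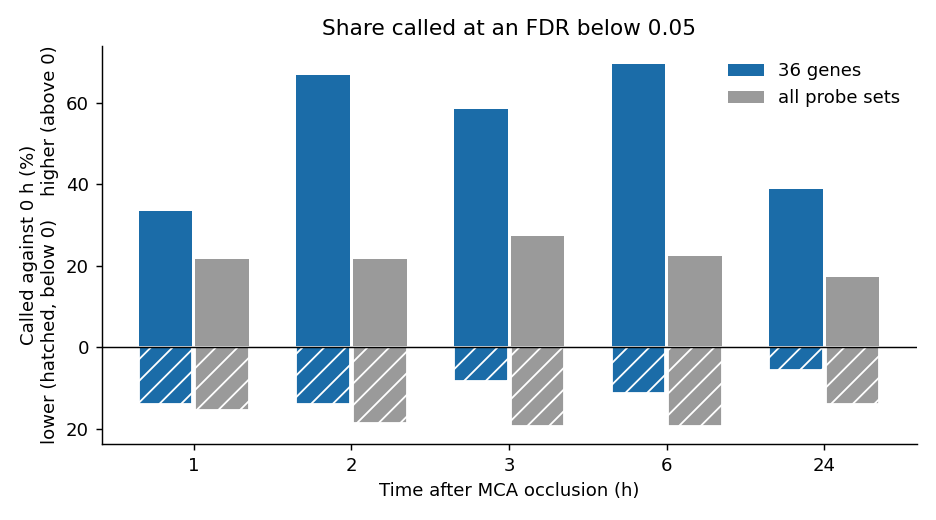
Percent of genes called higher (bars above 0) or lower (hatched bars below 0) than at 0 h at an FDR below 0.05, at each later time point in h, for the 36 glucose genes (blue) and all 27596 probe sets (grey). The blue bars above 0 are taller than the grey at every time point, with 24 of 36 genes higher at 2 h and 25 of 36 at 6 h.

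Neighbouring time points were compared in the same model. From 1 to 2 h, 18 of the 36 genes rose and 3 fell, while 4.66% of all probe sets rose and 4.11% fell. From 2 to 3 h, 2 rose (Slc2a1 and Hk2) and 5 fell (Slc16a3, Gpi, Pfkfb4, Eno3 and Gys1), against 1.9% and 1.62% of all probe sets. From 3 to 6 h, 8 rose and none fell, against 2.34% and 2.44%, and Hk3 was called lower (-0.30, FDR 0.0355) when the 24 h samples were left out. The 8 were Slc16a3, Tpi1, Pfkfb3, Pgk1, Eno1, Gys1, Gbe1 and Taldo1. From 6 to 24 h, 21 fell and 5 rose, against 8.68% and 10.2%, with the change of sampling site at that step. Among the 26 rising genes the largest rise was at 2 h in 8, at 3 h in 3, at 6 h in 14 and at 24 h in 1.

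**Figure D2:**
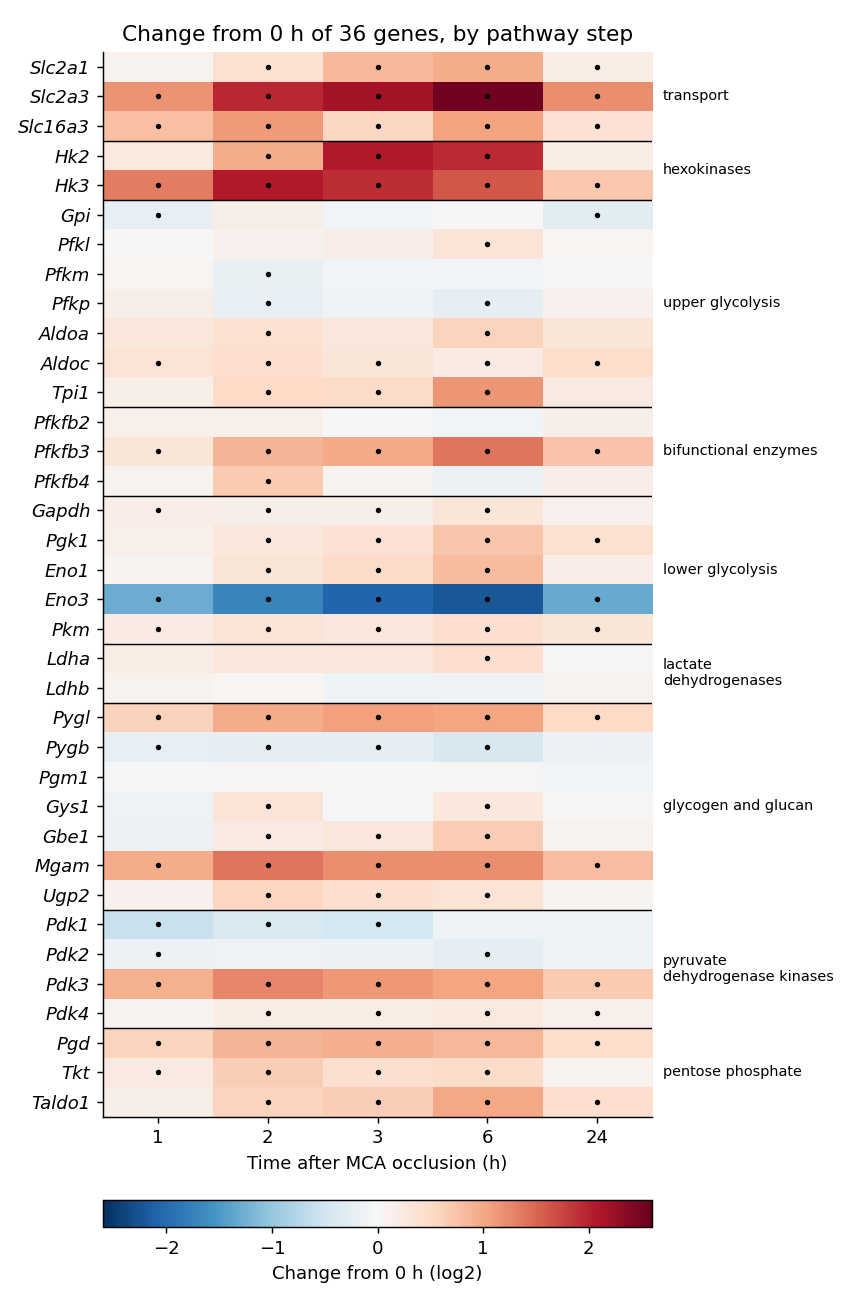
Change from 0 h on the log2 scale (colour, red higher and blue lower) of the 36 genes (rows, grouped by pathway step) at 1, 2, 3, 6 and 24 h (columns); a dot marks an FDR below 0.05. Slc2a3, Hk2 and Hk3 carry the deepest red and Eno3 the deepest blue, and within hexokinases, bifunctional enzymes, enolases, phosphorylases and pyruvate dehydrogenase kinases the rows differ in direction or time.

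All 3 transport genes rose. Slc2a3 encodes GLUT3, a high-affinity glucose carrier, and it had the largest rise of the 36 genes. Its mean signal was 7.54 at 0 h and then 8.70 (1 h), 9.50 (2 h), 9.71 (3 h), 10.06 (6 h) and 8.75 (24 h), with SDs of 0.23 to 0.56. It was already 1.16 ± 0.16 above 0 h at 1 h (log2 change ± SE; FDR 1.14e-07), and at 6 h it was 2.52 ± 0.16 higher, which is 5.72-fold (FDR 1.44e-17). At 24 h the rise was still 1.21 ± 0.16, 48.0% of that at 6 h on the log2 scale, and the SD there was the highest of any of the 36 genes. Slc2a1 encodes GLUT1, the basal glucose carrier of most cells. The log2 signal averaged 8.17 at 0 h and then 8.26 (1 h), 8.56 (2 h), 9.03 (3 h), 9.13 (6 h) and 8.37 (24 h), with SDs of 0.11 to 0.22. It started later than Slc2a3, as the change at 1 h was 0.09 ± 0.08 (FDR 0.375), and reached 0.96 ± 0.08 at 6 h (FDR 7.97e-14), before it fell back to 0.20 ± 0.08 at 24 h. Slc16a3 encodes MCT4, the lactate exporter of glycolytic cells. Mean signals were 8.72 at 0 h and then 9.50 (1 h), 9.83 (2 h), 9.25 (3 h), 9.78 (6 h) and 9.09 (24 h), with SDs of 0.15 to 0.41. It had maxima at 2 h and at 6 h, with a drop from 2 to 3 h (change -0.57, FDR 0.00539) and a rise from 3 to 6 h (change 0.53, FDR 0.0145). Its changes from 0 h were 1.10 ± 0.13 at 2 h, 0.53 ± 0.13 at 3 h and 1.06 ± 0.14 at 6 h, each called.

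The hexokinases, which phosphorylate glucose and so hold it in the cell, both rose about 4-fold but at different times. Hk3 is the hexokinase typical of myeloid cells. Its average was 5.92 at 0 h and then 7.25 (1 h), 7.98 (2 h), 7.84 (3 h), 7.54 (6 h) and 6.63 (24 h), with SDs of 0.09 to 0.29. It had gone up by 1.33 ± 0.10 at 1 h and peaked at 2.05 ± 0.10 at 2 h, 4.15-fold (FDR 7e-22), and it fell by 0.43 from 2 to 6 h (FDR 0.00192). Hk2 is the inducible hexokinase that can bind mitochondria. On the log2 scale it stood at 7.05 at 0 h and then 7.30 (1 h), 8.01 (2 h), 9.11 (3 h), 8.99 (6 h) and 7.24 (24 h), with SDs of 0.13 to 0.33. At 1 h its change was 0.25 ± 0.12 (FDR 0.0994), and it then rose at each of the steps from 1 to 2 h (0.72, FDR 5.73e-05) and from 2 to 3 h (1.10, FDR 1.8e-08). At 3 h it was 2.06 ± 0.12 above 0 h, 4.18-fold (FDR 7.72e-19), and at 6 h 1.95 ± 0.13. At 24 h it was 0.19 ± 0.12 from 0 h (FDR 0.241), 9.15% of its largest change, where Hk3 still had 34.3%. From 2 to 6 h Hk2 rose by 0.98 (FDR 9.76e-08), so over that interval the pair moved in opposite directions.

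**Figure D3:**
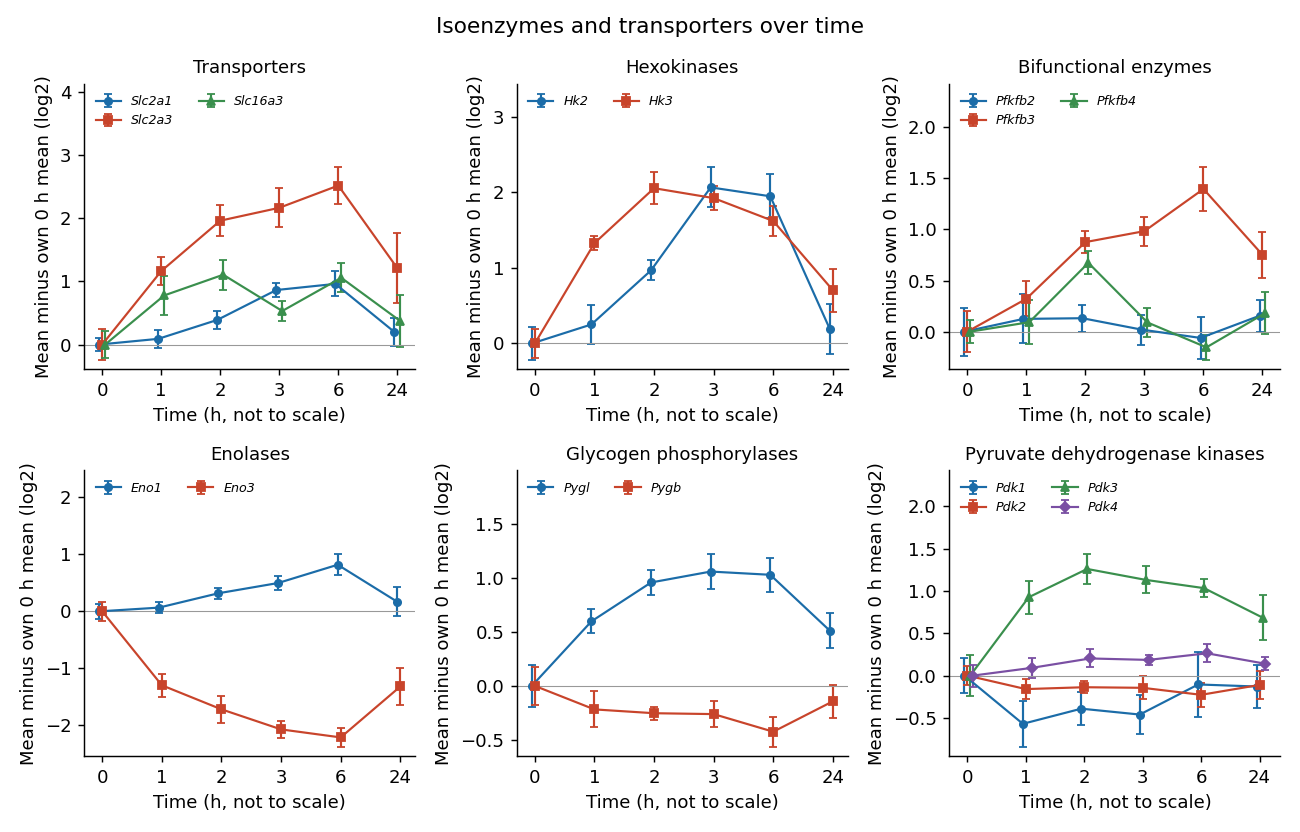
Authors' mean log2 signal minus that of the same probe set at 0 h (y axis; bars are the deposited SD of each time point) against time (x axis, h, evenly spaced and not to scale), in 6 gene families. Hk3 peaks at 2 h and Hk2 at 3 h, Pfkfb4 rises at 2 h alone while Pfkfb3 climbs to 6 h, and Eno3 falls while Eno1 rises.

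Among the 7 genes of upper glycolysis, which takes glucose 6-phosphate to the triose phosphates, 4 rose, 2 fell and 1 was not called by the F-test. Tpi1, which interconverts the triose phosphates, changed most. Its mean signal was 8.04 at 0 h and then 8.19 (1 h), 8.55 (2 h), 8.53 (3 h), 9.19 (6 h) and 8.27 (24 h), with SDs of 0.17 to 0.28. It rose by 0.51 ± 0.10 at 2 h, stood at 0.49 ± 0.10 above 0 h at 3 h, and rose again by 0.66 from 3 to 6 h (FDR 7.39e-05), to 1.15 ± 0.11 above 0 h (FDR 3.07e-12). The aldolases, which split fructose 1,6-bisphosphate, had different courses. Aldoa, the form of muscle and red cells, had mean signals of 10.91 at 0 h and then 11.20 (1 h), 11.30 (2 h), 11.21 (3 h), 11.49 (6 h) and 11.23 (24 h), with SDs of 0.24 to 0.32. Its rise of 0.58 ± 0.15 at 6 h (FDR 0.00139) stood beside an SD of 0.30 at 0 h. Aldoc, the form best known from brain, had mean signals of 7.03 at 0 h and then 7.37 (1 h), 7.47 (2 h), 7.35 (3 h), 7.24 (6 h) and 7.49 (24 h), with SDs of 0.12 to 0.19. It was higher than 0 h at every later time point, by 0.35 ± 0.08 at 1 h and 0.47 ± 0.08 at 24 h (FDR 3.43e-05), and was the only 1 of the 26 rising genes with its largest rise at 24 h.

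The phosphofructokinases, which catalyse the committed step of glycolysis, moved little. Pfkl, the liver-type subunit common in leukocytes, was called at 6 h alone (0.33 ± 0.08, FDR 0.00056). Pfkp, the platelet-type subunit, was lower at 2 h (-0.22 ± 0.08, FDR 0.0298) and at 6 h (-0.23 ± 0.09, FDR 0.0245). Pfkm, the muscle-type subunit, missed the F-test call at an FDR of 0.0504, although its change at 2 h was called (-0.20 ± 0.07, FDR 0.0287). Gpi, which isomerises glucose 6-phosphate, was lower at 1 h (-0.22 ± 0.07) and at 24 h (-0.27 ± 0.07, FDR 0.00156), and rose by 0.36 in between, from 1 to 2 h (FDR 0.000171).

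The bifunctional enzymes make and degrade fructose 2,6-bisphosphate, the strongest activator of phosphofructokinase, and the 3 genes had 3 different profiles. Pfkfb3, the inducible form whose kinase activity prevails, had mean signals of 7.82 at 0 h and then 8.15 (1 h), 8.70 (2 h), 8.81 (3 h), 9.22 (6 h) and 8.58 (24 h), with SDs of 0.11 to 0.23. It was higher than 0 h at every later time point, rising by 0.32 ± 0.09 at 1 h and by 1.40 ± 0.09 at 6 h, 2.63-fold (FDR 2.02e-17), with 0.75 ± 0.09 left at 24 h. Pfkfb4, a further inducible form, was raised at 2 h alone. The log2 signal averaged 8.40 at 0 h and then 8.49 (1 h), 9.07 (2 h), 8.49 (3 h), 8.25 (6 h) and 8.58 (24 h), with SDs of 0.11 to 0.21. The rise of 0.67 ± 0.08 at 2 h (FDR 8.95e-10) was not seen at 3 h (0.09 ± 0.08, FDR 0.349), and the steps into it (0.58, FDR 8.88e-07) and out of it (-0.58, FDR 1.18e-06) were both called. Pfkfb2, the form known from heart, was not called at any time point. Mean signals were 9.25 at 0 h and then 9.37 (1 h), 9.38 (2 h), 9.27 (3 h), 9.18 (6 h) and 9.40 (24 h), with SDs of 0.13 to 0.24, and its largest change was 0.16 ± 0.09 at 24 h (95% confidence interval -0.03 to 0.34).

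Lower glycolysis, from glyceraldehyde 3-phosphate to pyruvate, held 5 measured genes, of which 4 rose with their largest change at 6 h and 1 fell. The fall was that of Eno3, the enolase form typical of skeletal muscle, and was the largest fall of the 36 genes. The mean signal of Eno3 was 10.35 at 0 h and then 9.06 (1 h), 8.63 (2 h), 8.28 (3 h), 8.14 (6 h) and 9.03 (24 h), with SDs of 0.15 to 0.32. It dropped by 1.30 ± 0.10 in the first hour and was 2.21 ± 0.11 below 0 h at 6 h, 4.63-fold lower (FDR 1.46e-21), and at 24 h it was still 1.32 ± 0.10 below. Eno1, the enolase form of most tissues, moved the other way. Its average was 9.12 at 0 h and then 9.18 (1 h), 9.43 (2 h), 9.61 (3 h), 9.93 (6 h) and 9.28 (24 h), with SDs of 0.09 to 0.26, and at 6 h it was 0.82 ± 0.08 higher (FDR 1.22e-11). Its second probe set, which lies at another position of rn5, rose by 0.78 at 6 h.

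Pgk1, which makes the first ATP of glycolysis, had mean signals of 10.25 at 0 h and then 10.39 (1 h), 10.53 (2 h), 10.63 (3 h), 10.98 (6 h) and 10.64 (24 h), with SDs of 0.10 to 0.20. It rose by 0.73 ± 0.08 at 6 h (FDR 1.58e-10), and the step from 3 to 6 h was called (0.35, FDR 0.00502). Pkm, the pyruvate kinase of most tissues, was higher at all 5 later time points, by 0.22 ± 0.06 at 1 h up to 0.43 ± 0.07 at 6 h. Gapdh, the glyceraldehyde phosphate dehydrogenase often used as a reference gene, was higher at 1 to 6 h, most at 6 h (0.32 ± 0.06, FDR 1.38e-05). It has 4 probe sets at different positions of rn5, which may share probes with near-identical copies, and these rose by 0.28 to 0.33 at 6 h. Ldha, the lactate dehydrogenase subunit that favours lactate, was called at 6 h alone, with a rise of 0.44 ± 0.15 (FDR 0.0147) beside SDs of 0.18 to 0.39. Ldhb, the subunit typical of heart, was not called at any time point, and its largest change was -0.11 ± 0.10 at 3 h (95% confidence interval -0.31 to 0.10).

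**Figure D4:**
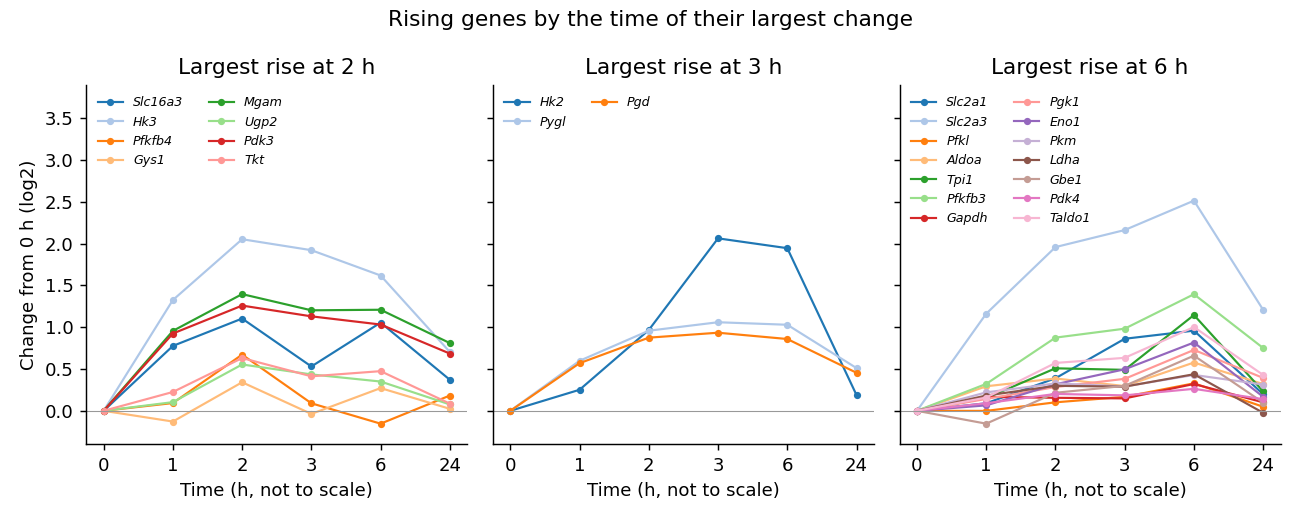
Change from 0 h (log2, y axis) against time (x axis, h, evenly spaced and not to scale) for the 25 rising genes with their largest rise at 2 h (8 genes), 3 h (3 genes) and 6 h (14 genes). Hk3, Mgam and Pdk3 are highest at 2 h, and Slc16a3 and Gys1 dip at 3 h between maxima at 2 and 6 h.

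Of the 7 genes of glycogen and glucan metabolism, 5 rose, 1 fell and 1 was not called. The glycogen phosphorylases, which release glucose 1-phosphate from glycogen, moved in opposite directions. Pygl, the liver form, which leukocytes also use, had mean signals of 10.94 at 0 h and then 11.54 (1 h), 11.90 (2 h), 12.00 (3 h), 11.97 (6 h) and 11.45 (24 h), with SDs of 0.11 to 0.19. It rose by 0.60 ± 0.08 at 1 h and was 1.06 ± 0.08 higher at 3 h, 2.08-fold (FDR 4.46e-16). Pygb, the brain form, had mean signals of 7.12 at 0 h and then 6.91 (1 h), 6.87 (2 h), 6.86 (3 h), 6.70 (6 h) and 6.98 (24 h), with SDs of 0.06 to 0.18, and was lower from 1 to 6 h, by 0.42 ± 0.07 at 6 h (FDR 5.99e-06).

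Mgam, maltase-glucoamylase, which cuts glucose from the ends of glucans, had mean signals of 6.48 at 0 h and then 7.43 (1 h), 7.88 (2 h), 7.68 (3 h), 7.69 (6 h) and 7.29 (24 h), with SDs of 0.11 to 0.26. It rose by 1.40 ± 0.08 at 2 h, 2.63-fold (FDR 1.4e-19), and was still 0.81 ± 0.08 higher at 24 h. Its symbol shares the probe set with a locus named LOC103690059, and a second probe set with the same symbols rose by 0.66 at 2 h but did not carry the rise at 24 h, where its mean was 5.77 against 5.89 at 0 h. Among the genes that build glycogen, Gbe1, the branching enzyme, had mean signals of 9.15 at 0 h and then 8.997 (1 h), 9.37 (2 h), 9.45 (3 h), 9.81 (6 h) and 9.25 (24 h), with SDs of 0.09 to 0.17. It was called higher from 2 h (0.22 ± 0.07, FDR 0.0112) to 6 h, where it was 0.66 ± 0.07 above 0 h (FDR 1.74e-10), and its change at 1 h was -0.15 ± 0.07 (FDR 0.0762). Ugp2, which makes the UDP-glucose that glycogen synthase uses, had mean signals of 9.09 at 0 h and then 9.19 (1 h), 9.64 (2 h), 9.53 (3 h), 9.44 (6 h) and 9.17 (24 h), with SDs of 0.07 to 0.30, and rose by 0.55 ± 0.11 at 2 h (FDR 5.23e-05). Gys1, the glycogen synthase of muscle and most other tissues, rose at 2 h (0.34 ± 0.09) and at 6 h (0.27 ± 0.09), and its 4 steps from 1 h on were all called, up, down, up and down. Pgm1, which interconverts glucose 1-phosphate and glucose 6-phosphate, was not called at any time point, and its largest change was -0.07 ± 0.06 at 24 h (95% confidence interval -0.20 to 0.06).

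The pyruvate dehydrogenase kinases, which switch off the entry of pyruvate into the citric acid cycle, split by gene. Pdk3 had mean signals of 9.97 at 0 h and then 10.90 (1 h), 11.23 (2 h), 11.10 (3 h), 11.01 (6 h) and 10.66 (24 h), with SDs of 0.11 to 0.27. It rose by 0.93 ± 0.10 at 1 h and 1.26 ± 0.10 at 2 h, 2.39-fold (FDR 6.74e-15). Pdk1 had mean signals of 8.50 at 0 h and then 7.93 (1 h), 8.11 (2 h), 8.04 (3 h), 8.40 (6 h) and 8.37 (24 h), with SDs of 0.20 to 0.38. It was lower at 1, 2 and 3 h, most at 1 h, by 0.57 ± 0.12 (FDR 0.000368), and not called at 6 h (-0.11 ± 0.13, FDR 0.534). Pdk4, the form induced by fasting and glucocorticoids in other tissues, had mean signals of 5.81 at 0 h and then 5.90 (1 h), 6.01 (2 h), 5.99 (3 h), 6.07 (6 h) and 5.95 (24 h), with SDs of 0.06 to 0.13, and its rise of 0.26 ± 0.06 at 6 h (FDR 0.000177) was small. Pdk2 had mean signals of 7.14 at 0 h and then 6.98 (1 h), 7.01 (2 h), 7.00 (3 h), 6.92 (6 h) and 7.03 (24 h), with SDs of 0.07 to 0.16. It missed the F-test call at an FDR of 0.0687, and its changes at 1 h (-0.16 ± 0.06, FDR 0.0478) and at 6 h (-0.23 ± 0.07, FDR 0.00541) were called.

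All 3 genes of the pentose phosphate pathway rose. Pgd, the second dehydrogenase of the oxidative branch and a source of NADPH, had mean signals of 8.96 at 0 h and then 9.53 (1 h), 9.84 (2 h), 9.90 (3 h), 9.82 (6 h) and 9.42 (24 h), with SDs of 0.12 to 0.28. It rose by 0.57 ± 0.09 at 1 h and 0.93 ± 0.09 at 3 h (FDR 2.64e-12), and its probe set also carries the symbol Kif1b. Tkt, transketolase of the non-oxidative branch, had mean signals of 9.44 at 0 h and then 9.67 (1 h), 10.07 (2 h), 9.85 (3 h), 9.91 (6 h) and 9.53 (24 h), with SDs of 0.09 to 0.20, and rose most at 2 h, by 0.63 ± 0.07 (FDR 2.17e-10). Taldo1, transaldolase of the same branch, was later. On the log2 scale it stood at 9.34 at 0 h and then 9.50 (1 h), 9.91 (2 h), 9.97 (3 h), 10.34 (6 h) and 9.77 (24 h), with SDs of 0.17 to 0.32, and it rose by 1.00 ± 0.11 at 6 h, 2.0-fold (FDR 1.45e-10).

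The order of the maxima was also examined by comparing 6 h with 2 h, a comparison added after the values had been seen. Of the 36 genes, 10 gained between 2 and 6 h and 3 lost, against 5.17% and 4.95% of all probe sets. The 3 lower genes were Hk3, Pfkfb4 and Eno3. Hk2 (0.98), Tpi1 (0.64), Slc2a1 (0.57), Slc2a3 (0.56) and Pfkfb3 (0.52) had the largest rises between these times. For Slc16a3, Pygl, Mgam, Pdk3, Pgd and Tkt the levels at 2 and 6 h did not differ beyond the test's threshold.

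A longer list of 67 other genes of glucose metabolism was read in the same way. Of the 65 found, 46 were called by the F-test, 29 with a rise and 17 with a fall as the largest change, beside 55.5% of all probe sets called, 31.3% with a rise and 24.1% with a fall. The median size of the largest change was 0.28, near the 0.24 of all probe sets. Ppp1r3b, a subunit that brings protein phosphatase 1 to glycogen, rose by 2.09 (2 h), 2.32 (3 h) and 2.20 (6 h). Ppp1r3d, a related subunit, rose by 1.22 at 6 h. Ldhc, the lactate dehydrogenase known from testis, rose by 1.64 within 1 h and by 2.20 within 2 h, and had returned to 0.34 at 24 h. Its gene adjoins other lactate dehydrogenase genes of similar sequence, and cross-hybridisation was not tested. Smaller rises were those of Adpgk (0.78 at 3 h), an ADP-dependent glucokinase, Gyg1 (0.60 at 6 h), the primer protein of glycogen, G6pc3 (0.55 at 1 h), a glucose 6-phosphatase of leukocytes, and Pdha1 (0.53 at 3 h), a subunit of pyruvate dehydrogenase. The glucose carriers Slc2a6 (0.52 at 2 h) and Slc2a4 (0.50 at 1 h) rose too. Falls were those of Pgm2l1 (-0.89 at 6 h), which makes glucose 1,6-bisphosphate, and Slc16a7 (-0.77 at 2 h), the monocarboxylate carrier MCT2. The pyruvate dehydrogenase phosphatases Pdp1 (-0.60 at 2 h) and Pdp2 (-0.51 at 3 h), which undo the action of the kinases, and Dlat (-0.51 at 2 h), a core subunit of the complex, also fell.

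Marker genes of blood cell types moved over the same hours. No cell counts were used here, some neutrophil markers such as Il1r2 and Mmp9 are also induced in activated cells, and in whole blood a change in the number of cells of a type and a change in RNA per cell cannot be told apart. All 10 neutrophil markers were called with a rise as their largest change, with median changes, in order of time, of 1.00, 1.49, 1.43, 1.77 and 0.80, and their mean log2 signal went from 9.89 at 0 h to 11.8 at 6 h and 10.7 at 24 h. Of the 8 B cell markers 7 were called, all with a fall, and their median change was -1.50 (1 h), -2.13 (3 h) and -0.53 (24 h). The 8 T cell markers all fell, with a median change of -1.19 at 6 h. Of the 6 NK cell markers 5 fell and 1 rose, and of the 6 monocyte markers 4 fell and 2 rose. As whole blood should, the samples carried red cell transcripts, and the 7 erythroid markers had log2 signals of 11.3 to 13.6 at 0 h. Medians of the 5 platelet markers lay between 0.00 and 0.26, and those of the 7 erythroid markers between -0.12 and 0.08. The F-test called 3 of the 5 platelet markers, all with a rise. It called 3 of the 7 erythroid markers, 2 with a rise and 1 with a fall. From 6 to 24 h, 5 of the 7 erythroid and 2 of the 5 platelet markers rose and none fell. From 1 to 2 h, 9 of the 10 neutrophil markers rose, and from 6 to 24 h all 10 fell, as 18 and 21 of the 36 glucose genes did. From 3 to 6 h, 1 of the 10 neutrophil markers rose, beside 8 of the 36 glucose genes, and from 2 to 6 h 1 of the 10, beside 10 of the 36. The median changes over these intervals were nevertheless larger for the neutrophil markers, at 0.23 against 0.07 for the 36 genes from 3 to 6 h and 0.08 against 0.03 from 2 to 6 h, and neither difference was tested. The part of these marker changes in the changes of the glucose genes was not tested.

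**Figure D5:**
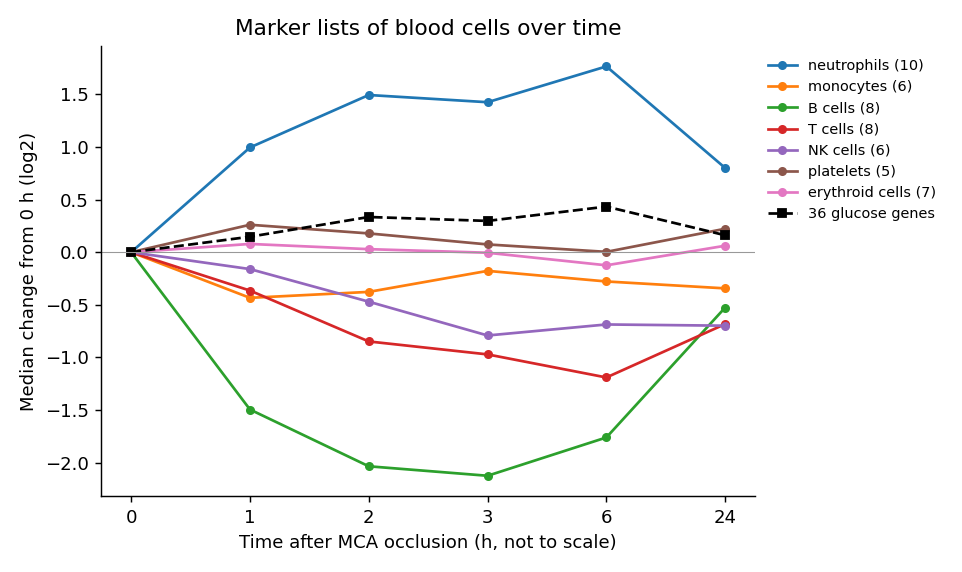
Median change from 0 h (log2, y axis) of the marker genes of 7 blood cell types (number of genes in brackets) and of the 36 glucose genes (dashed black) against time (x axis, h, evenly spaced and not to scale). Neutrophil markers lie highest at every later time point (1.77 at 6 h) and B cell markers reach the lowest value (-2.13 at 3 h), while the median of the 36 glucose genes stays between 0.15 and 0.43.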

How the data were processed

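Blood RNA of 8 SHR rats was measured on 47 Affymetrix RaGene arrays at 6 time points. The deposited table holds, per probe set, the authors' mean and SD of log2 signal at each time point. The authors made the signal by RMA, per the file headers, with rn5 annotation. RMA quantile normalizes the arrays, so a change is relative to the other probe sets. Levels of different probe sets were not compared, apart from the group medians given at 0 h. The table also holds 47 columns of single arrays, which are named by running numbers that may follow the order of rats and times. No label ties a number to a sample, and they were not used. It further holds columns of the authors' own fold changes, p-values and F-tests, which were not used. The arrays' number limits the precision, and the signal over background was not assessed.

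A moderated F-test and moderated contrasts were computed from those means and SDs and the number of arrays, with the functions of limma 3.58.1 in R 4.3.3 (pooled variance with 41 residual degrees of freedom, prior degrees of freedom 5.71), with Benjamini-Hochberg adjustment over 27596 probe sets. These take the arrays as independent, although the same rats were sampled at every time point. The calculation was tested on simulated data. Where a symbol had several probe sets, the one with the highest mean was used. Per the study's methods, samples were randomized for RNA workup, and the workup batch of a sample was not used here.

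The genes, pathway and marker lists were chosen with earlier results of these data known. All listed genes could be named, with every value for those past an F-test FDR of 0.05 and with a largest change of at least 0.5, and for their isoenzymes. Other pathway genes were named by the same limits, except for 1 that is not reported here. The comparison of 6 h with 2 h was added after the values were seen. Promoter windows are from RefSeq, GRCr8, and were read with Python 3.11.15.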

Additional observations from a re-analysis of the deposited data

How the results depend on the processing

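The tests were repeated without moderation, with an intensity trend and robust prior, without the 25% of probe sets with the lowest means, with each time point centred on its median, without the 24 h samples, with the variance of the compared time points alone and, for the counts of genes called, without probe sets that carry more than 1 symbol. The largest change of each gene was also computed after quantile normalization of the means and with every other probe set of its symbol. Of the 253 alternative values for the largest change of a gene, 252 kept their direction and, where tested, their side of the threshold. Pfkm alone lost its call at 2 h (-0.20, FDR 0.0677) with the variance of the 2 time points compared. The direction could differ only with centring, quantile normalization or another probe set. All other settings use the same means, so their direction was fixed in advance. Of the 133 alternative counts over the 36 genes, 131 stayed within 1.5 times the main count. The F-test called 18 genes and 3717 probe sets at a p below 5e-07, which is a stricter threshold by construction, and without the 24 h samples 1 gene, Hk3, was lower from 3 to 6 h (FDR 0.0355, and 0.0675 with them), in a fit with fewer samples. After centring, which shifted changes by 0.03 to 0.05, 3465 probe sets were higher at 1 h and 2749 at 24 h, in place of 5997 and 4794. No paired analysis was possible because the array columns carry only running numbers, with no rat or time in the name, and columns were not assigned to samples by their order or values. The numbers run from 1 to 48 without 17, which is the place of the absent sample, rat 3 at 6 h, if they run rat by rat through the times. This order was not tested or used, so a rat block was not run, nor was any rat left out in turn. The means and SDs give no view of single rats, and changes smaller than the authors' SDs are the least certain.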
